A study of Rattus norvegicus with 6 samples.

Results

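SNARE proteins and the vesicle proteins that work with them carry out exocytosis, the fusion of a vesicle with the plasma membrane. The set examined here was named as 10 genes and holds the plasma membrane SNAREs Snap25, Snap23 and Stx1a, the vesicle SNAREs Vamp1, Vamp2 and Vamp3, the vesicle glycoproteins Sv2a and Sv2b, and the complexins Cplx1 and Cplx2. Members were selected on an exact match to the gene symbol in the deposited table, which gave 8 of the 10 among 23091 genes. The one measured value in this rule is the total count over the 6 samples, by which 1 identifier would be chosen where a symbol stands on several, but each of the 8 symbols stood on 1. The named genes themselves were put together with the CYSP against CK results of these samples in view, so their fold changes and p-values are a description and support no claim about the set. Snap23 was not found by its symbol. A row with the placeholder symbol AABR07053516.1 carries the deposited description synaptosome associated protein 23, and its values are given beside those of the 8 members as Snap23 by description. Cplx1 is not analysed here.

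All samples were wild-type rat mesenchymal stem cells from marrow, stromal cells that grow attached to the dish, cultured for 7 days in media for neural differentiation. In 3 samples, called CK, the media held DMSO, a solvent, and in the other 3 they held CYSP, an abbreviation that the labels leave unexplained. The labels give neither strain, sex nor age, and they do not say that samples of a group came from separate cultures or animals, so p-values set the groups against a spread that may be technical. The series asks how gene expression changes while such cells take on a neuron-like state.

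In a SNARE complex a vesicle protein of the VAMP family pairs with a syntaxin and with a protein of the SNAP-25 family on the target membrane, and the zippering of their helices pulls both membranes together. Neurons use Snap25, Stx1a and Vamp2 or Vamp1 for calcium-triggered transmitter release, while Snap23 and Vamp3 serve secretion and membrane recycling in most cell types. SV2 proteins sit in the membrane of synaptic and secretory vesicles, and complexins bind the assembled complex and tune its release.

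Depth ran from 15060933 to 17244700 counts per sample. A gene without a count could still have had a level of up to 3 counts, or 0.169 to 0.205 CPM (counts per library total, scaled by edgeR's TMM factors as in every CPM value here). Such limits and the counting intervals below cover counting error only. Markers of several cell types moved together with the genes below, and their part in those results was not tested. Here and below, higher and lower describe CYSP against CK for a gene that passed edgeR's quasi-likelihood test at a Benjamini-Hochberg adjusted p under 0.05. The 7 marrow stromal markers were all detected, with a summed level of 67227 to 69460 CPM in CK and 16041 to 17208 in CYSP. Most of both sums was Col1a1 (40647 ± 960 CPM in CK, 9663 ± 436 in CYSP) and Col1a2 (25770 ± 349 and 5319 ± 153). Col1a1, Col1a2 and Pdgfrb were lower, and Thy1, Eng, Nt5e and Cd44 higher. The 8 leukocyte and macrophage markers summed to 955 to 1084 CPM in CK and 448 to 454 in CYSP, with 7 lower and Cd14 not passing. Of 10 neuron markers, which summed to 14.5 to 15.1 CPM in CK and 39.4 to 45.8 in CYSP, 3 were abundant enough to test. Tubb3 was higher (log2 fold change 2.12) and made up most of the CYSP sum, at 37.8 ± 2.59 CPM. Map2 (-1.65) and Dcx (-4.44, with 79 counts over CK and 3 over CYSP) were lower. Dcx passed the count filter only through CK, so its fall, once tested, is no independent result. Of the 7 under the count filter, Stmn2 had 0 counts over CK and 39 over CYSP, and Syt1 had 1 and 36. Nefm had 5 and 29, Syp 12 and 23, and Elavl3 0 and 2. Nefl had 3 counts over CK and 0 over CYSP. Rbfox3, which encodes the nuclear antigen NeuN, was at 0 in each sample. The 6 fat-cell markers summed to 17.5 to 21.2 CPM in CK and 515 to 543 in CYSP. Adipoq made up most of the latter, with 10 counts over CK and 23846 over CYSP, and passed the count filter only through CYSP. Fabp4 was lower (-0.94) and Pparg did not pass. Plin1 had 8 counts over CK and none over CYSP, Lep had 1 count in each group and Cidec was at 0. The 5 megakaryocyte and platelet markers summed to 7.66 to 8.93 CPM in CK and 47.3 to 50.9 in CYSP, with Pf4 higher (2.56), Itga2b and Gp1bb under the count filter, and Ppbp and Gp9 at 0. In bulk RNA of this kind, fewer cells of a type and less RNA per cell cannot be told apart.

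The promoter sequences of the vesicle SNAREs Vamp1 and Vamp2 and of Sv2b, which were higher in CYSP, and of Cplx2, which was lower, are shown so that the letters upstream of genes that moved in the same and in opposite directions can be read side by side. Each is the 250 bases before the annotated start in RefSeq, 5' to 3', in lower case, with capitals marking a match on either strand to the cAMP response element TGACGTCA, its 5-base part TGACG, the GC box GGGCGG or the TATA box TATAAA. RefSeq's table matched 8 of the 10 named genes by symbol, the exceptions being Snap25 and Vamp3. No source used here names the build behind the deposited counts.
Vamp1, GRCr8 chr4:159698644-159698893, plus strand: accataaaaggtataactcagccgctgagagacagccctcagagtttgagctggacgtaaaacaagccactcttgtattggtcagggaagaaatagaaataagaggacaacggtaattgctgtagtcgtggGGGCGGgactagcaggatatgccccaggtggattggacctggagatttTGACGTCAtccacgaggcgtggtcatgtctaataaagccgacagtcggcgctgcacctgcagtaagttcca
Vamp2, GRCr8 chr10:54292539-54292788, plus strand: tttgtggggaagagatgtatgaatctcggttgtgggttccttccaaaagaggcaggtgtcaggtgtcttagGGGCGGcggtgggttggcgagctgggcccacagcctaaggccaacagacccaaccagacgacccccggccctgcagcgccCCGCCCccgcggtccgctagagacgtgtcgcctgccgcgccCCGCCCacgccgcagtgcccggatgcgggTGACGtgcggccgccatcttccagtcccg
Sv2b, GRCr8 chr1:138562259-138562508, minus strand: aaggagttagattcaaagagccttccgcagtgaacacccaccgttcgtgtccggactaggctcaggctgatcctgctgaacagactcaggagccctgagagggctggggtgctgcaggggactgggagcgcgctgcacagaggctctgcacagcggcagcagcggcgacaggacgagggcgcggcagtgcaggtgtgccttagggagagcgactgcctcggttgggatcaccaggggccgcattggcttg
Cplx2, GRCr8 chr17:10236754-10237003, minus strand: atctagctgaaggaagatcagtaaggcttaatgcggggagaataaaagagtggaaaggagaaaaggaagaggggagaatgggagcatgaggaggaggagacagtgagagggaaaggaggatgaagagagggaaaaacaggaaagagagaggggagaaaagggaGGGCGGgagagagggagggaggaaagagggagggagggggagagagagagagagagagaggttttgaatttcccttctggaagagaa

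The Vamp1 sequence holds 1 full cAMP response element, which starts 71 bases before the annotated start, and 1 GC box. The full element was found in 466 of 27457 RefSeq promoters of the same length, taking 1 per gene, or 1.7%. TGACG, which the full element contains on both strands, was found in 19% of promoters and occurs once in the Vamp2 sequence outside any full element, next to 3 GC boxes. The GC box was found in 32.4% and the TATA box in 13.1% of promoters. Sv2b has none of these letters, and Cplx2 has 1 GC box. Among members whose sequence is not shown, Sv2a, which was higher, has no match, and Stx1a, which did not pass, has 4 GC boxes. A match is a description of the letters and not a binding site.

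Among the SNAP-25 family, the neuronal member appeared in CYSP beside a ubiquitous member that was lower. Snap25, the target-membrane SNARE of synapses and of endocrine cells, had 0, 0 and 1 count in the 3 CK samples and 770, 698 and 768 in the 3 CYSP samples, or 46.7, 47.1 and 52.4 CPM. The ratio of the group totals was 2445, with a 95% Clopper-Pearson counting interval of 438 to 96617. In edgeR's quasi-likelihood fit, with p-values adjusted after Benjamini and Hochberg over the 12623 genes tested, Snap25 rose (adjusted p = 9.49e-54). Its fitted log2 fold change of 10.78 depends on the prior count, since CK held 1 read. It was 12.60 without CK replicate 3, the sample with that read, and 4.58 by limma-trend on log2(FPKM + 1).

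Snap23 by description, the counterpart used for secretion and granule release in non-neuronal cells, had 57.7, 50 and 58.8 CPM in CK and 39.6, 40.5 and 44.2 CPM in CYSP. The groups did not overlap, and the gene fell by a log2 fold change of 0.42 (SE 0.0634, edgeR adjusted p = 8.98e-09). With a biological coefficient of variation of 0.2 assumed, in edgeR's likelihood-ratio test, the call ended (adjusted p = 0.139). The common value estimated over all genes was 0.0393. Levels of different genes were compared per length, on the authors' FPKM, which divides by gene length and library size. On that scale Snap25 made up 0.0438% of the summed level of both genes in CK and 58.8% ± 1.22 in CYSP (SD, n = 3), where each sample lay between 57.4 and 59.5%. The sum itself was 23 ± 2.42 FPKM in CK and 39.6 ± 2.2 FPKM in CYSP. These shares use the same contrast that was in view when the genes were chosen and are given without a test.

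Stx1a, the syntaxin that pairs with Snap25 at synapses, did not follow it. Its 3 CK samples had 1.86, 2.95 and 1.87 CPM and its CYSP samples 1.21, 2.77 and 2.25 CPM. The groups overlapped and the gene did not pass (log2 fold change -0.11, SE 0.294, edgeR adjusted p = 0.751). The sign of this value turned when CK replicate 2 was left out (0.14) or CYSP replicate 1 (0.18), so no direction can be given. In the same CYSP samples Snap25 stood at 23.2 ± 1.39 FPKM and Stx1a at 0.868 ± 0.337 FPKM.

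**Figure D1:**
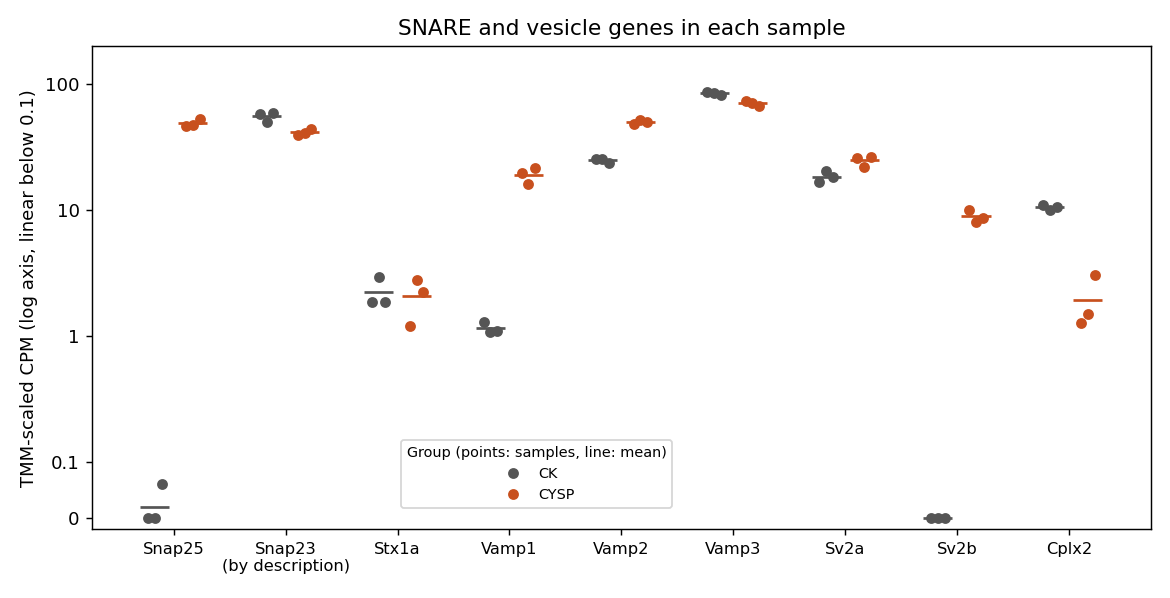
TMM-scaled CPM (log axis, linear below 0.1) of the 8 members found by symbol and of Snap23 by description; each point is 1 sample, lines are group means, grey is CK and orange CYSP. Snap25 and Sv2b go from at most 1 count in CK to at least 46.7 and 8.04 CPM in CYSP, Vamp3 is slightly lower in CYSP, and the groups of Stx1a overlap.

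The vesicle SNAREs were all detected in both groups, and Vamp1 and Vamp2 rose while Vamp3 fell. Vamp1, a neuronal vesicle SNARE best known from spinal cord and motor nerve endings, had 1.3, 1.07 and 1.09 CPM in CK and 19.7, 16.1 and 21.4 CPM in CYSP, 16.6-fold higher by group means. Every CYSP sample lay far above every CK sample (log2 fold change 4.04, SE 0.175, edgeR adjusted p = 1.81e-34). Vamp2, the main vesicle SNARE of brain synapses and also part of insulin-stimulated glucose transporter delivery in fat and muscle, had 25.2, 25.4 and 23.7 CPM in CK and 48.4, 51.3 and 49.8 CPM in CYSP. It was 2.01-fold higher, with no overlap (log2 fold change 1.01, SE 0.0694, edgeR adjusted p = 1.16e-22). With an assumed coefficient of variation of 0.4 the Vamp2 call ended (adjusted p = 0.129).

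Vamp3, also called cellubrevin and found on recycling endosomes of most cells, had 85.9, 84.8 and 82.2 CPM in CK and 73.6, 70.5 and 66.3 CPM in CYSP. This was a fall by a log2 fold change of 0.26 (SE 0.0502, edgeR adjusted p = 2.64e-06). The groups did not overlap, but 72.5% of tested genes had a larger absolute change, and with an assumed coefficient of variation of 0.2 the call ended (adjusted p = 0.374). Vamp3 nevertheless remained the largest of the 3 per length in both groups. Its share of the summed FPKM of Vamp1, Vamp2 and Vamp3 was 78.7% ± 0.753 in CK and 55.6% ± 2.07 in CYSP (SD, n = 3). The share of Vamp2 was 20.4% ± 0.766 and 32.9% ± 1.41, and that of Vamp1 0.831% ± 0.0968 and 11.5% ± 1.39. The sum of the 3 genes differed less than these shares, at 64.7 ± 2 FPKM in CK and 72.1 ± 0.985 FPKM in CYSP. On CPM, which is not per length, the sum was 110 ± 2.85 in CK and 139 ± 2.31 in CYSP.

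**Figure D2:**
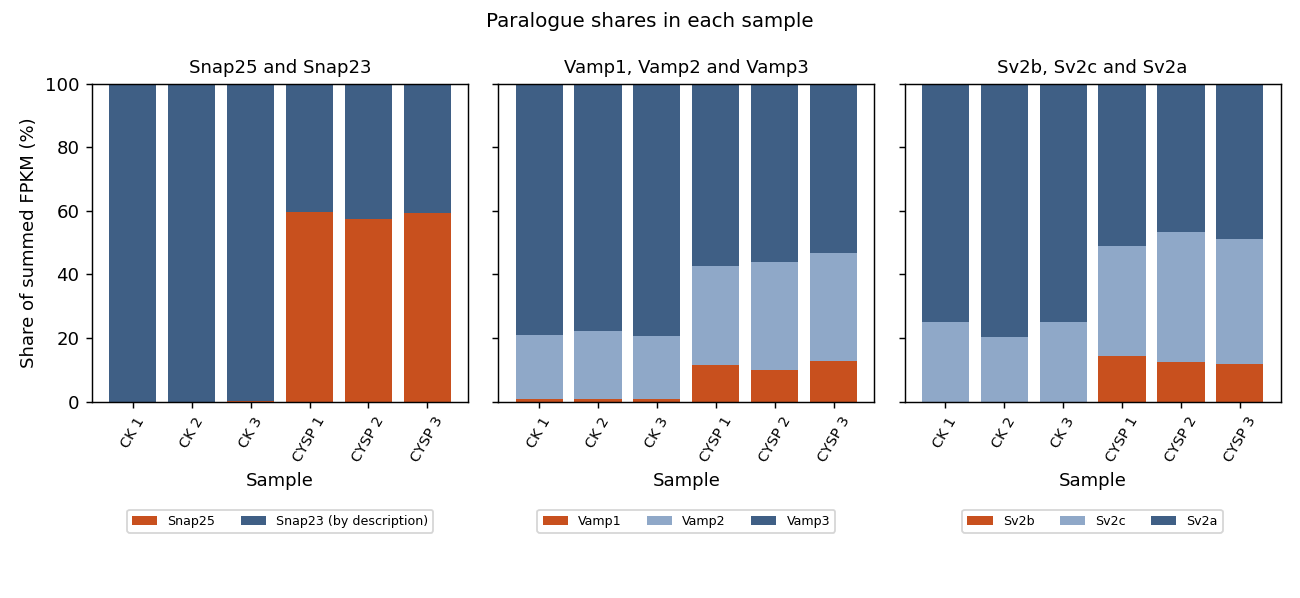
Share (%) of each gene in the summed FPKM of the genes in its panel, one stacked bar per sample. The left panel holds Snap25 and Snap23 by description, the middle panel Vamp1, Vamp2 and Vamp3, and the right panel the 3 SV2 genes. Other relatives are outside these sums. Among them are Snap29 (mean 12.1 FPKM in CK, 12.5 in CYSP), Vamp7 (18.4 and 26) and Vamp8 (25.4 and 12.7). In each CYSP sample Snap25 takes 57.4 to 59.5% of its pair, Vamp3 53.3 to 57.3% of the sum of its panel, and Sv2a 46.6 to 50.8% of the SV2 sum.

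The vesicle glycoproteins differed in the size of their change. Sv2a, the widely expressed SV2 protein and the binding site of the antiepileptic drug levetiracetam, had 16.7, 20.2 and 18.4 CPM in CK and 25.9, 22 and 26.2 CPM in CYSP. The gap between the highest CK and the lowest CYSP sample was small, and Sv2a rose by 0.43 on the log2 scale (SE 0.0926, edgeR adjusted p = 2.93e-05), a call that ended with an assumed coefficient of variation of 0.2 (adjusted p = 0.145). Sv2b, a paralogue with a narrower distribution in brain, had no count in any CK sample and 164, 119 and 127 counts in CYSP, or 9.96, 8.04 and 8.67 CPM. Sv2b rose, at least 149-fold with 3 counts over the group as the floor (edgeR adjusted p = 3.69e-29). Sv2c, the third paralogue and no member of the set, was higher too, at 3.86 ± 0.356 CPM in CK and 13.2 ± 1.09 CPM in CYSP (edgeR log2 fold change 1.77, SE 0.148, adjusted p = 3.29e-18). Of the summed FPKM of the 3 SV2 genes, Sv2a held 76.4% ± 2.83 in CK and 48.8% ± 2.13 in CYSP, Sv2c 23.6% ± 2.83 and 38.2% ± 3.15, and Sv2b 13% ± 1.28 in CYSP. The summed level was 6.45 ± 0.429 FPKM in CK and 12.8 ± 0.778 FPKM in CYSP.

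Of the complexins, Cplx2, the isoform shared by forebrain synapses and several non-neuronal secretory cells, went the other way. It had 10.9, 10 and 10.6 CPM in CK and 1.27, 1.49 and 3.07 CPM in CYSP. CYSP replicate 3 was above the other CYSP samples yet below every CK sample, and Cplx2 fell by a log2 fold change of 2.45 (SE 0.196, edgeR adjusted p = 2.24e-18). Cplx3 had no count in any sample and Cplx4 had 2 counts over CK and none over CYSP, so neither was tested.

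In all, 5 of the 8 members found by symbol were higher, 2 were lower and Stx1a did not pass, while 76.1% of all 12623 genes tested passed in either direction, 38.2% higher and 37.8% lower. For 7 of the 8 the groups did not overlap, against 76.9% of all genes tested. The share called is near that of the whole table and is no result about these genes. Where a log2 change of 1 or more in either direction was also required, 5 of the 8 remained, against 27.8% of all genes tested. Of these Vamp2 stood at the limit with 1.01, and its value was 0.93 with library size only, 0.99 with upper quartile scaling, 0.98 without CK replicate 3 and 0.99 without CYSP replicate 2. The absolute size ranged from a log2 value of 0.11 for Stx1a to the 2 genes near absent from CK. The median log2 fold change over the 8 was 0.72, the same with Sv2b at its bound, beside 0.00 over all genes tested. The members were named with these fold changes in view, so neither the 5 of 8 nor this median is a result about the set. Snap25 and Sv2b passed the filter on low counts only through CYSP, so that they had to differ once tested.

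Ordered by FPKM, the CK samples ran from Vamp3 at 50.9 ± 1.32 through Snap23 by description at 23 ± 2.41, Vamp2 at 13.2 ± 0.795, Cplx2 at 5.56 ± 0.221 and Sv2a at 4.93 ± 0.477 to Stx1a at 0.99 ± 0.276 and Vamp1 at 0.539 ± 0.0753. Snap25 and Sv2b came last. Of these neighbours Cplx2 and Sv2a overlapped, as did Snap25 and Sv2b. In CYSP the order was Vamp3 at 40.1 ± 2.02, Vamp2 at 23.8 ± 0.749, Snap25 at 23.2 ± 1.39, Snap23 by description at 16.3 ± 1.02, Vamp1 at 8.27 ± 0.939, Sv2a at 6.25 ± 0.574, Sv2b at 1.66 ± 0.175, Cplx2 at 0.971 ± 0.492 and Stx1a at 0.868 ± 0.337. Vamp2 and Snap25 overlapped there, as did Sv2b with Cplx2 and Cplx2 with Stx1a. Snap25 went from the bottom of the order to a level that its samples share with Vamp2.

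Genes with the most similar levels were found by the Euclidean distance in log2(FPKM + 1) over the 6 samples. For Snap25 they were Ca4 (distance 0.159), Fbxo2 (0.234) and Cacng7 (0.298), each at most 0.0933 FPKM on average in CK and between 22.2 and 25 FPKM in CYSP. For Snap23 by description they were Glce (0.191), Thap12 (0.209) and Unc93b1 (0.214), and for Cplx2 they were Arhgap6 (0.481), Tm4sf1 (0.499) and Per3 (0.52).

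The wider exocytosis machinery was read from 7 lists with 116 genes, of which 115 were found and 81 tested. Of these 42 rose, 19 fell and 20 did not pass, with a median log2 fold change of 0.16. The members and these lists were chosen with earlier results of these data known, so the counts here and per list below are descriptions. Beside them, 76.1% of all genes tested passed, 38.2% higher and 37.8% lower.

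Other plasma membrane and secretory vesicle SNAREs were split, with 3 of 13 tested genes higher, 5 lower and 5 not passing (median -0.11). Vamp7, a SNARE of lysosomal secretion and neurite growth, rose from 48.4 ± 2.72 to 72.2 ± 4.09 CPM, and Stx19 rose by a log2 fold change of 1.01. Stx11 and Vamp8, both known from granule release by blood cells, fell. Stx11 had 23.6 ± 1.98 CPM in CK and 6.59 ± 0.925 in CYSP, and Vamp8 had 19.1 ± 1.39 and 10.2 ± 0.486. The leukocyte markers given above moved with them, and their part in this result was not tested. Snap29 and Snap47, further SNAP-25 relatives, did not pass (log2 fold changes 0.13 and 0.03), nor did Vamp4 (-0.11) and Vamp5 (-0.31). SNAREs of endosomes and the Golgi had 7 of 16 tested genes higher and 5 lower (median 0.09), led by Stx6 at a log2 fold change of 0.91, with Use1 at 0.59, Stx5 at -0.58 and Stx17 at -0.39.

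Factors that assemble, prime and take apart the SNARE complex had 7 of 14 tested genes higher and 4 lower (median 0.19). Stxbp5, the syntaxin-binding protein tomosyn that restrains fusion, rose from 60 ± 3.69 to 157 ± 1.82 CPM, while its paralogue Stxbp5l fell from 7.8 ± 1.62 to 0.315 ± 0.279 CPM. Unc13b, a priming factor, rose from 0.405 ± 0.307 to 2.7 ± 0.569 CPM. Nsf, the ATPase that takes spent complexes apart, fell from 103 ± 3.82 to 74 ± 4.3 CPM. Unc13a, which the naming rule did not take and which is added after its values were seen, encodes a Munc13 protein that primes vesicles at synapses. It rose from 15.5 ± 1.7 to 31 ± 1.44 CPM.

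Among calcium sensors of fusion 5 of 9 tested genes were higher and 2 lower (median 0.28), and 15 of 24 stayed under the count filter. Syt17 rose from 2.57 ± 0.328 to 26.9 ± 1.6 CPM and Syt3 from 0.323 ± 0.215 to 1.89 ± 0.33 CPM. Dysf and Myof, ferlins of membrane repair in muscle, fell by 1.94 and 1.44 on the log2 scale. Syt1, the calcium sensor of fast synaptic release that works with Snap25, had 1 count over CK and 36 over CYSP and was not tested.

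Other vesicle membrane and associated proteins had 13 of 16 tested genes higher and 1 lower, with a median log2 fold change of 1.12. Sypl1, a widely expressed relative of synaptophysin, rose from 96.3 ± 2.7 to 584 ± 7.23 CPM, Rab3a, the vesicle GTPase of synapses, from 2.54 ± 0.536 to 17.7 ± 3.15 CPM, and Syngr3 from 0.404 ± 0.154 to 3.01 ± 0.172 CPM. Rab27a, a GTPase of secretory granules, fell from 11.9 ± 0.591 to 4.65 ± 1.09 CPM. Syp itself, the most used marker of synaptic vesicles, had 12 counts over CK and 23 over CYSP and was not tested.

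Exocyst subunits, which tether vesicles before fusion, had 2 of 8 genes higher and 2 lower (median 0.03), with Exoc2 at 0.47, Exoc8 at -0.36 and Exoc3 at -0.26. Of 11 dense-core granule genes 5 were tested, and these rose (median 3.60). Of the 5, Scg2 and Vgf passed the count filter only through CYSP, so their rise was largely set by the filter. The other 6 genes of the list stayed under it. Ptprn, a granule membrane protein of neuroendocrine cells, rose from 11.5 ± 0.971 to 435 ± 17.6 CPM and Pcsk1, a prohormone convertase, from 0.759 ± 0.11 to 9.27 ± 0.791 CPM. Scg2, a granin, had 2 counts over CK and 101 over CYSP, a ratio of 55.2 (95% counting interval 14.9 to 462). The granins Chga and Chgb had no count in any sample, and the 6 neuroendocrine and chromaffin markers summed to 0 CPM in CK and at most 0.0675 CPM in CYSP. Of all genes tested on these lists 9 passed the filter through 1 group only, among them Scg2, Unc13b, Syt3 and Syngr3 through CYSP and Stxbp5l through CK.

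**Figure D3:**
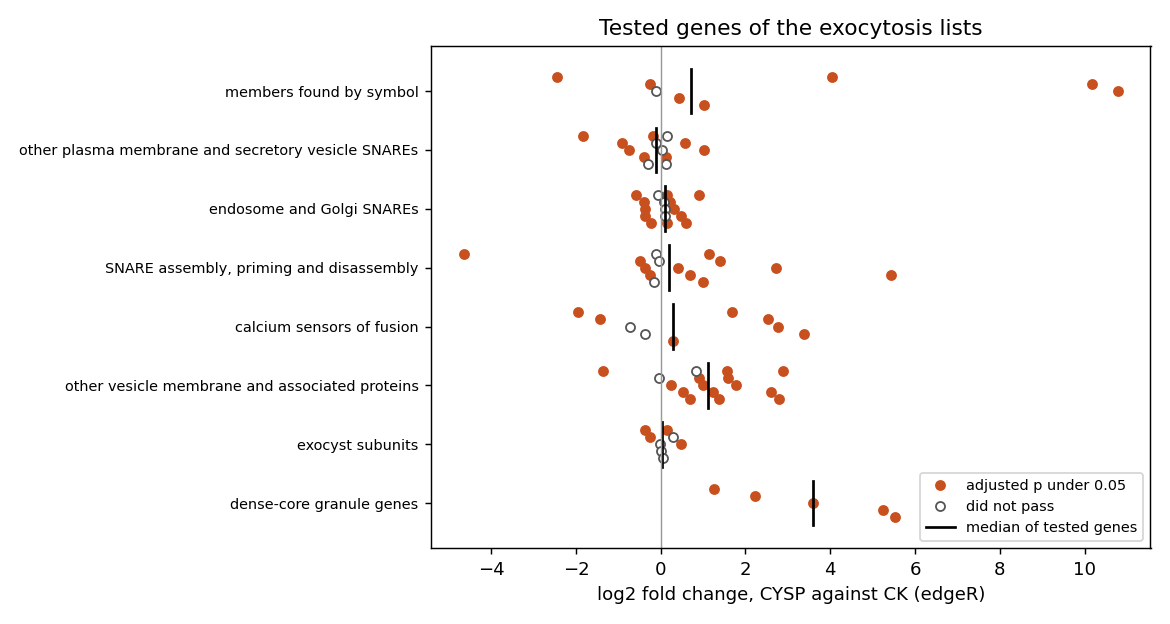
Fitted log2 fold changes (edgeR, CYSP against CK) of the tested genes of each list, 1 point per gene, filled where the adjusted p is under 0.05; black bars are medians of the tested genes. Medians lie between -0.11 and 0.28 for 5 of the 7 wider lists, at 1.12 for other vesicle proteins and at 3.60 for dense-core granule genes. The last median rests on 5 of 11 genes, of which 2 passed the count filter only through CYSP. The 2 rightmost members, Sv2b and Snap25, have at most 1 read in CK, so their positions depend on the prior count.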

How the data were processed

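Polyadenylated RNA of 6 samples was sequenced after Trizol extraction and oligo(dT) enrichment, per the labels' protocols. The deposited table gives raw read counts for every gene in each sample, and FPKM made by the authors, per the file headers. The submitters' processing notes name fastp 0.18.0, HISAT2, StringTie 1.3.1 and RSEM without roles, so deposited counts may be rounded estimates. No source used here states the build, the annotation or whether counting used strand, so reads of overlapping, antisense or near-identical genes could be mixed.

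Titles gave the groups. Counts were tested with edgeR 4.0.16 in R 4.3.3 (filterByExpr, TMM, robust quasi-likelihood fit), with p-values adjusted by the Benjamini-Hochberg method over 12623 genes and a threshold of 0.05. CPM are TMM-scaled, with mean ± SD over 3 samples, and standard errors come from the F statistic. Members, lists and tests were chosen with earlier results of these data known. From each wider list the text names up to 3 genes with the largest change among those passing with a mean of at least 1 CPM, up to 2 of the minority direction, and 10 paralogues of members, of which 1 is not reported here. Promoters were searched after the data were seen. Alternatives were other scalings and filters, DESeq2 1.42.0, limma-voom and limma-trend (limma 3.58.1) on FPKM, each sample left out, a replicate block and assumed coefficients of variation. The last were added after the data were seen and used edgeR's likelihood-ratio test in place of the quasi-likelihood test. The edgeR procedure was tested on simulated data in which few genes were changed. In the real data 76.1% of genes tested passed, so the simulation does not show how the procedure performs where most genes move.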

Additional observations from a re-analysis of the deposited data

How the results depend on the processing

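The direction of each member's change and its side of the threshold held under the other scalings, tests and filters and with each sample left out, except for Stx1a, which never passed and whose log2 fold change turned positive without CK replicate 2 (0.14) and without CYSP replicate 1 (0.18), while leaving out the other samples gave values down to -0.37. The number of members called stayed at 7 there. On log2(FPKM + 1), whose pseudocount shrinks low genes, the fold changes were smaller for Snap25 (4.58), Sv2b (1.41), Vamp1 (2.59) and Vamp2 (0.80). With an assumed coefficient of variation of 0.4 the number of members called was 4, of which 3 were higher and 1 lower. With 0.2 it was 5, of which 4 were higher and 1 lower. With a log2 fold change of at least 1 also required, 5 members were called, 4 higher and 1 lower. For all genes the count fell from 9600 to 5903 at 0.2 (3102 higher, 2801 lower), to 2705 at 0.4 (1496 and 1209) and to 3515 with the size threshold (1917 and 1598). For the wider lists it fell from 61 to 37 at 0.2 (8 lower), to 24 at 0.4 (19 higher, 5 lower) and to 28 with the size threshold (23 higher, 5 lower). These go with the larger spread and other test, or the stricter call, that each setting imposes.

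On CPM, which is not per length, Snap23 by description held 45.9% of its pair in CYSP, Sv2b 26.4% of the sum with Sv2a in CYSP (21% by FPKM), Vamp1 1.04% in CK and 13.7% in CYSP, Vamp2 22.5% and 35.9%, and Vamp3 76.5% and 50.4%. The stricter filter left Stx1a out. No identifiers had to be summed, since each member symbol stands on 1. Same-numbered samples showed no shared signal, with deviations that correlated at -0.022, 0.0104 and 0.00143, which cannot settle whether the samples were paired. With the replicate block 7 members, 59 genes of the wider lists and 9485 genes in all were called. Depth limits Stx1a, Syp and Syt1, each under 50 counts per sample.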
